A study of Mus musculus with 14 samples.

Results

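Mitochondrial fatty acid beta-oxidation was followed through 33 genes, listed by gene symbol under their roles, with earlier results of these data known, out of the 46983 genes of each deposited table. The 33 members comprise 6 genes of the carnitine shuttle, 9 acyl-CoA dehydrogenases, 8 enzymes of the later steps, 3 genes of electron transfer, 5 long-chain acyl-CoA synthetases and 2 thioesterases. All 33 were found in both tables and carried an adjusted p in both, so the authors' filter on low values removed none of them. RNA was sequenced from cultured oligodendrocytes and from corpus callosum, the white matter tract between the hemispheres, each with libraries labelled Qk-KO and WT. Qk encodes quaking, an RNA-binding protein abundant in myelinating glia.

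The cultures were neural stem cells from mice of a mixed FvB and C57BL6 background, differentiated in medium holding IGF-1 (100 ng/ml) and T3 (50 ng/ml). They gave 3 libraries labelled Qk-KO (Qk-/-) and 3 labelled WT, and the labels do not name their Cre driver. Passages 7, 12 and 13 each gave 1 library of either genotype. Sample descriptions carry 40HT for every Qk-KO culture and EtOH for every WT culture, so agent and genotype cannot be told apart there. The callosum gave 4 libraries from Plp-CreERT2;QKLoxP/LoxP mice (Qk-KO) and 4 from Plp-CreERT2;QKLoxP/+ mice (WT) of the same background. Both groups received tamoxifen at 8 weeks of age, and tissue was taken 4 days later. The WT mice therefore also carry the inducible Cre and 1 floxed Qk copy. The Plp promoter drives Cre in cells of the oligodendrocyte lineage, while the tissue holds all callosal cell types.

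Fatty acids enter beta-oxidation as acyl-CoA esters made by the synthetases. The carnitine shuttle carries the long chains across the mitochondrial membranes, and each turn of the spiral then removes an acetyl-CoA through a dehydrogenase, a hydratase, a hydroxyacyl-CoA dehydrogenase and a thiolase. Electrons pass from the acyl-CoA dehydrogenases through the electron transfer flavoprotein to the respiratory chain. PPAR receptors, paired with RXR, are known to drive many of these genes, and in the brain the pathway is known as one used by astrocytes more than by neurons.

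Promoter sequences of 5 members that fell in culture are given before the values. Promoter windows of 300 bases, from 250 before to 50 after the transcription start (RefSeq, GRCm38.p6), were at hand for 27 of the 33 members, in 30 windows. Cpt1b, Crat, Decr1, Acad9, Acot13 and Acaa2 had none. The first sequence belongs to Hadhb and is shown because Hadha and Hadhb, the subunits of the mitochondrial trifunctional protein, start back to back on chromosome 5. Their starts lie 273 bases apart on opposite strands, and their windows share 228 bases. Capitals in the Hadhb window mark GGGCGG on either strand, the core of the GC box. The other 4 windows belong to Cpt1a, Acadm, Acadvl and Acsl6, and capitals there mark AGGTCA on either strand, the core motif of nuclear receptors. Only windows with a match were printed, and the other windows of Acsl6 hold no AGGTCA.
Hadhb, chr5:30155003-30155302, plus strand: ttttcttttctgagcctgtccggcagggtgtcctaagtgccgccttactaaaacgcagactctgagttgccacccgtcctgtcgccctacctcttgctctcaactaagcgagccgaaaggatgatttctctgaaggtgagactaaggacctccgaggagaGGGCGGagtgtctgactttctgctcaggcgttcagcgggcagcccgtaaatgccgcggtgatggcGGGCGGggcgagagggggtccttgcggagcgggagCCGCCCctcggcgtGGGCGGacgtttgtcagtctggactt
Cpt1a, chr19:3323051-3323350, plus strand: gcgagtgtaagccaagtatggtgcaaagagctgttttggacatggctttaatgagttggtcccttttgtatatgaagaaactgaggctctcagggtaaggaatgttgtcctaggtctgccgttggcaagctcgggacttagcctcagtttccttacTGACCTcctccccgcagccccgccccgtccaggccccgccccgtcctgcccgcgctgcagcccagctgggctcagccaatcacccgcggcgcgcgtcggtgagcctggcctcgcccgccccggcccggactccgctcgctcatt
Acadm, chr3:153944594-153944893, minus strand: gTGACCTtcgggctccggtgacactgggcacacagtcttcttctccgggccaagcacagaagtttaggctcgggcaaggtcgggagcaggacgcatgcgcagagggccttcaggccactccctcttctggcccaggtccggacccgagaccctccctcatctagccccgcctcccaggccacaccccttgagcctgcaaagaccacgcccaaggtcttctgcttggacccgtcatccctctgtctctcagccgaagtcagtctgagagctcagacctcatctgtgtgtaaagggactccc
Acadvl, chr11:70015379-70015678, minus strand: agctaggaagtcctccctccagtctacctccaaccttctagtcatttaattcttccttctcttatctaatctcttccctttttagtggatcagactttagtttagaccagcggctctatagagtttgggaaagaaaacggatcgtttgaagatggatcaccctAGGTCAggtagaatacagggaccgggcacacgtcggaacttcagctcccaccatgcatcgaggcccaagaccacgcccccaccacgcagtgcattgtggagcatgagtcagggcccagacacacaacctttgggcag
Acsl6, chr11:54303574-54303873, plus strand: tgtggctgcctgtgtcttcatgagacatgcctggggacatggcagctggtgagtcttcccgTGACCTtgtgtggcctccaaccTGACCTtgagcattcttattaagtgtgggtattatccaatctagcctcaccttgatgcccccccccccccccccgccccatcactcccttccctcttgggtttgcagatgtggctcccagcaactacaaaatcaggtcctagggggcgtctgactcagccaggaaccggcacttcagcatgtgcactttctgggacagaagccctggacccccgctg
AGGTCA was found in 6 of the 30 member windows (20.0%), against 16.3% of all 32851 windows. It lies 94 bases before the start in Cpt1a, 87 in Acadvl and 249 in Acadm. The direct repeat of this core with 1 base of any kind between its copies, known as the PPAR and RXR element DR1, was in none of the member windows and in 0.0396% of all windows. TCAAGGTCA, the element of estrogen-related receptors, which contains the core AGGTCA, was in 1 member window and in 0.423% of all windows. That window is the Acsl6 window printed above, and the other windows of Acsl6 lack it. GGGCGG was in 22 of the 30 member windows (73.3%), against 35.7% of all windows. All motifs were searched on both strands, and such matches describe letters in these windows only.

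The single-library columns of both tables hold fitted means of the authors' model, in which the libraries of a genotype differ only by their size factor. The value of a gene is therefore the same in every library of a genotype after division by that factor, whether groups overlap cannot be seen, and errors are the standard errors of the deposited fold changes. Levels below are fitted normalized counts, and changes are log2 values of Qk-KO over WT, read from the authors' deposited table with the sign turned. Fitted counts summed to between 38325833 and 48912999 per culture library and between 15048646 and 27666519 per callosum library. A call means an adjusted p under 0.05 over all tested genes in the authors' deposited Wald test. The labels number the replicates without saying that each is a separate mouse or derivation, so the p-values measure the spread between these samples, which may be technical.

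The targeted gene was not lower in either system. Qk rose to a fitted normalized count of 139023 in Qk-KO cultures, against 88261 in WT cultures, a log2 change of 0.66 ± 0.14 (SE, adjusted p = 4.19e-05) per the authors' deposited table. In callosum it stood at 18214 in Qk-KO and 14541 in WT, a log2 change of 0.32 ± 0.12 that did not pass (adjusted p = 0.162) per the authors' deposited table. Reads over the whole gene include parts outside a floxed segment, so these values do not check the deletion. The culture label was set against its markers as well. Of 14 astrocyte markers, 11 fell and none rose in Qk-KO cultures, beside 15.2% lower and 13.3% higher over all tested genes. The summed level of the 14 was 192596 in Qk-KO and 656489 in WT cultures, and none of them was at 0. The 12 oligodendrocyte markers summed to 110494 in Qk-KO and 145297 in WT cultures. The cultures labelled differentiated oligodendrocytes thus hold RNA of both kinds of marker. In either genotype the astrocyte sum was the larger, most clearly in WT cultures, without correction for gene length. The name cultured oligodendrocytes is kept here from the labels only.

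In culture, 25 of the 33 members fell in Qk-KO, 2 rose and 6 did not pass. Over all 17503 tested genes, 28.6% were called, 15.2% lower and 13.3% higher, so the members' 75.8% lower stands beside a background of 15.2%. The median log2 change of the members was -0.75, against 0.01 over all tested genes. Of the 33 members, 9 had a log2 change below -1, and the share of all tested genes below that value was not counted. Every member of the later steps fell, and the 2 that rose are both acyl-CoA synthetases. Fewer cells of a type and less RNA per cell cannot be told apart in these bulk libraries. Over all genes the split of calls, 2336 higher and 2667 lower, turned to 3054 higher and 2296 lower when library totals replaced the authors' size factors, while the members' counts became 2 higher and 24 lower. It was 3405 higher and 2151 lower with totals that left out mitochondrially encoded genes, against 2 higher and 23 lower among the members. With a Student reference on the few libraries in place of the normal one, no member and no gene of the culture table passed the adjustment. Under it 25 members had an unadjusted p under 0.05, and the share of all genes at that p was not counted.

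**Figure D1:**
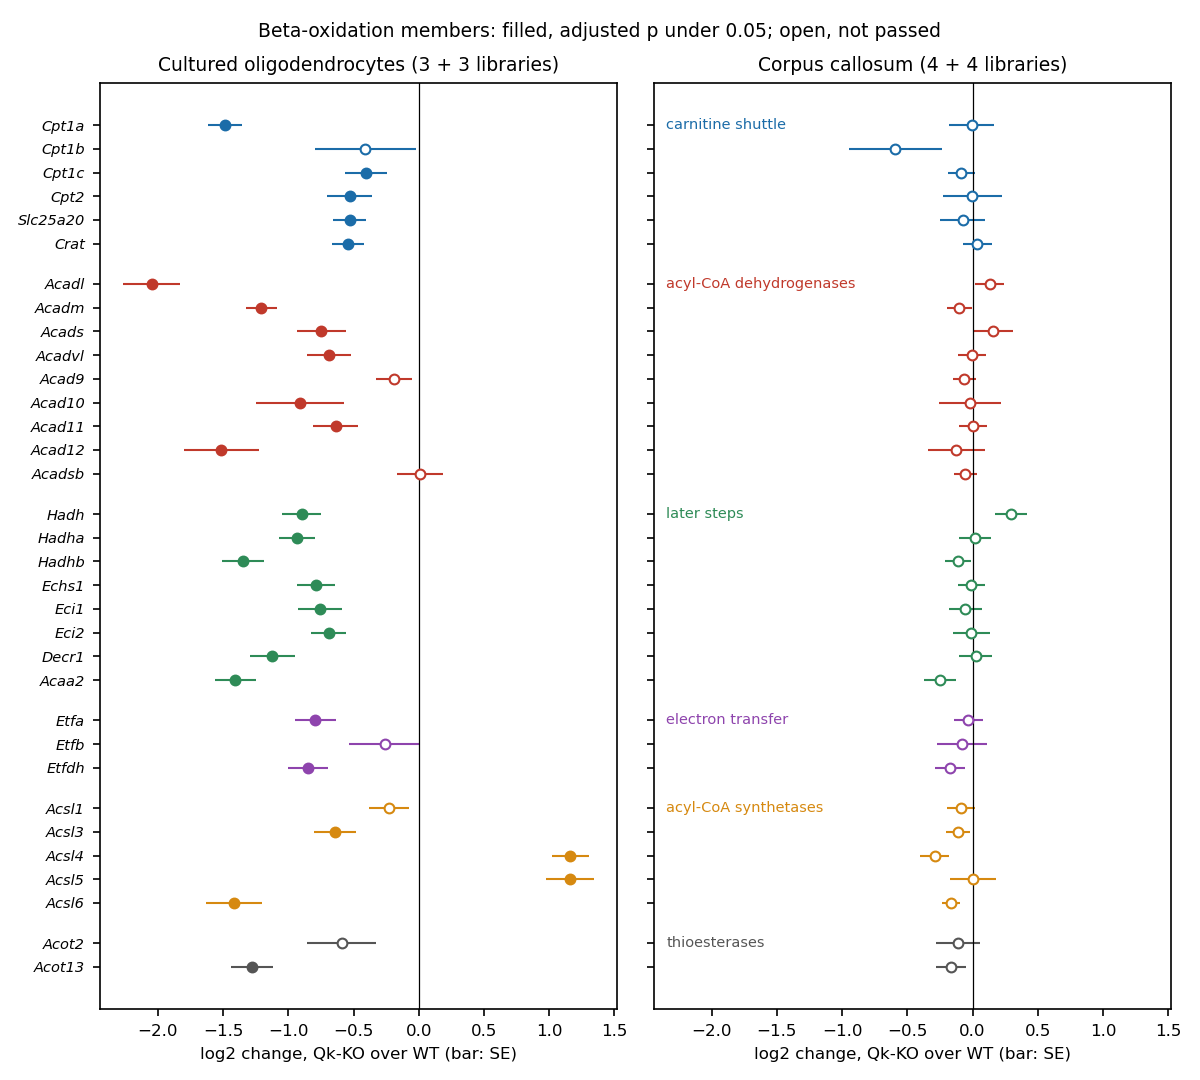
Log2 change of Qk-KO over WT with its standard error for the 33 members in cultured oligodendrocytes (left) and corpus callosum (right), grouped by role. Filled points passed an adjusted p under 0.05 per the authors' deposited table. In culture 25 points are filled below 0 and 2 above it, and in callosum none is filled.

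Genes of the carnitine shuttle fell in 5 of 6 cases in culture, with a median log2 change of -0.53. Cpt1a, the outer membrane carnitine palmitoyltransferase that controls entry of long chains, had a fitted normalized count of 2519 in Qk-KO and 7059 in WT cultures. This was 35.7% of the WT level, a log2 change of -1.49 ± 0.13 (adjusted p = 1.5e-27) per the authors' deposited table. Its inner membrane partner Cpt2 had 799 in Qk-KO and 1152 in WT, a log2 change of -0.53 ± 0.17 (adjusted p = 0.0108) per the authors' deposited table. Slc25a20, the carnitine-acylcarnitine carrier between the membranes, fell by 0.53 ± 0.13 log2 units per the authors' deposited table. Crat, which makes short-chain acylcarnitines, fell by 0.54 ± 0.12 log2 units per the authors' deposited table.

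The other genes of the Cpt1 family moved less than Cpt1a. Cpt1c, the brain form, fell by 0.40 ± 0.16 log2 units (adjusted p = 0.0444) per the authors' deposited table, and this call was lost with library totals (adjusted p = 0.113). Cpt1b, the muscle form, was at 70.6 in Qk-KO and 93.8 in WT, a log2 change of -0.41 ± 0.39 that did not pass (adjusted p = 0.483) per the authors' deposited table. Of its exon bases, 81.4% also lie in Gm44502 on the same strand, a gene that is absent from both deposited tables. The annotation used for counting is not given, so the level of Cpt1b and its share of the family are uncertain. Per kilobase of exon, Cpt1a made up 40.7% of the summed level of the 3 genes in Qk-KO cultures and 59.3% in WT cultures. Cpt1c made up 56.7% in Qk-KO and 38.9% in WT. The order of Cpt1a and Cpt1c was thus turned between the genotypes in culture, as a description of fitted levels without a test. These shares are of RNA, and enzyme activity was not measured. In callosum, Cpt1c held 71.6% in Qk-KO and 71.8% in WT.

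Acyl-CoA dehydrogenases, which take the first oxidation step on chains of different length, fell in 7 of 9 cases in culture, with a median log2 change of -0.75. Acadl, the long-chain form, had 1524 in Qk-KO and 6306 in WT cultures. Its log2 change of -2.05 ± 0.22 (adjusted p = 3.92e-19), to 24.2% of WT, was the lowest value among the 33 members per the authors' deposited table. The gene lies on chromosome 1 (66830839 to 66863277, minus strand, GRCm38). Acadm, the medium-chain form, had 2184 in Qk-KO and 5043 in WT cultures, a log2 change of -1.21 ± 0.12 (adjusted p = 6.43e-22) per the authors' deposited table. Acads, the short-chain form, fell by 0.75 ± 0.19 log2 units per the authors' deposited table.

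Acadvl, the very-long-chain form, fell by 0.69 ± 0.17 log2 units (adjusted p = 3.54e-04) per the authors' deposited table. Of its exon bases, 42.9% also lie in exons of Dvl2 on the opposite strand, and Dvl2 stood at -0.07 ± 0.17 in culture per the authors' deposited table. The strand setting of the counting is not given in the sources used here, so reads of the pair may not have been told apart. Acad11 fell by 0.64 ± 0.17 log2 units per the authors' deposited table. The neighbours Acad10 and Acad12, which lie 2.09 kb apart on the same strand, had log2 changes of -0.91 ± 0.34 and -1.51 ± 0.29, both called, at low levels per the authors' deposited table. They are paralogs, so their split of reads is uncertain.

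The members of this family that did not pass in culture were Acadsb and Acad9. Acadsb, which acts on short branched chains and in isoleucine breakdown, had 3998 in Qk-KO and 3962 in WT cultures. Its log2 change was 0.01 ± 0.18, with a 95% interval of -0.33 to 0.36, per the authors' deposited table. Acad9, which is also an assembly factor of respiratory complex I, had 994 in Qk-KO and 1135 in WT cultures. Its log2 change was -0.19 ± 0.14, with an interval of -0.46 to 0.07, per the authors' deposited table. Per kilobase of exon, Acadl held 25.7% of the summed level of the 9 genes in Qk-KO cultures and 46.9% in WT cultures, and Acadsb held 18.9% in Qk-KO and 8.23% in WT.

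All 8 members of the later steps fell in culture, with a median log2 change of -0.92 and values between -1.41 and -0.69. Hadha and Hadhb, which share the promoter printed above, both fell. Hadha, the subunit with hydratase and long-chain hydroxyacyl-CoA dehydrogenase activity, had 7069 in Qk-KO and 13518 in WT cultures. Its log2 change was -0.94 ± 0.14 (adjusted p = 3.07e-10) per the authors' deposited table. Hadhb, the thiolase subunit, had 2630 in Qk-KO and 6696 in WT cultures, a log2 change of -1.35 ± 0.16 (adjusted p = 1.3e-14) per the authors' deposited table. Both genes of the pair were thus lower, and the difference between their changes was not tested.

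The enzymes for shorter chains fell too. Hadh, the short-chain hydroxyacyl-CoA dehydrogenase, had 2820 in Qk-KO and 5258 in WT cultures, a log2 change of -0.90 ± 0.15 (adjusted p = 4.58e-08) per the authors' deposited table. Echs1, the short-chain enoyl-CoA hydratase, fell by 0.79 ± 0.15 log2 units per the authors' deposited table. Acaa2, the mitochondrial thiolase, had 758 in Qk-KO and 2009 in WT cultures, a log2 change of -1.41 ± 0.16 (adjusted p = 7.92e-17) per the authors' deposited table. The auxiliary enzymes for unsaturated chains moved the same way. Decr1, the dienoyl-CoA reductase, stood at -1.12 ± 0.17, and the isomerases Eci1 and Eci2 at -0.76 ± 0.17 and -0.69 ± 0.13, all 3 called, per the authors' deposited table.

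Electron transfer genes fell in 2 of 3 cases in culture. Etfa, a subunit of the electron transfer flavoprotein, had 788 in Qk-KO and 1365 in WT cultures, a log2 change of -0.79 ± 0.16 (adjusted p = 6.43e-06) per the authors' deposited table. Etfdh, the dehydrogenase that hands the electrons to ubiquinone, fell by 0.85 ± 0.15 log2 units (adjusted p = 2.72e-07) per the authors' deposited table. Etfb, the other subunit of the flavoprotein, had 102 in Qk-KO and 122 in WT cultures. Its log2 change of -0.26 ± 0.27 did not pass (adjusted p = 0.529) per the authors' deposited table, with a 95% interval of -0.80 to 0.27. The change of Etfa lies at the edge of that interval, and the Etfa interval of -1.10 to -0.48 leaves out the Etfb value. The difference between the 2 subunits was not tested. Of the exon bases of Etfb, 53.0% also lie in Gm45233 on the same strand, a gene with no fitted counts in culture, and how shared reads were counted is not given, so the level of Etfb is uncertain.

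**Figure D2:**
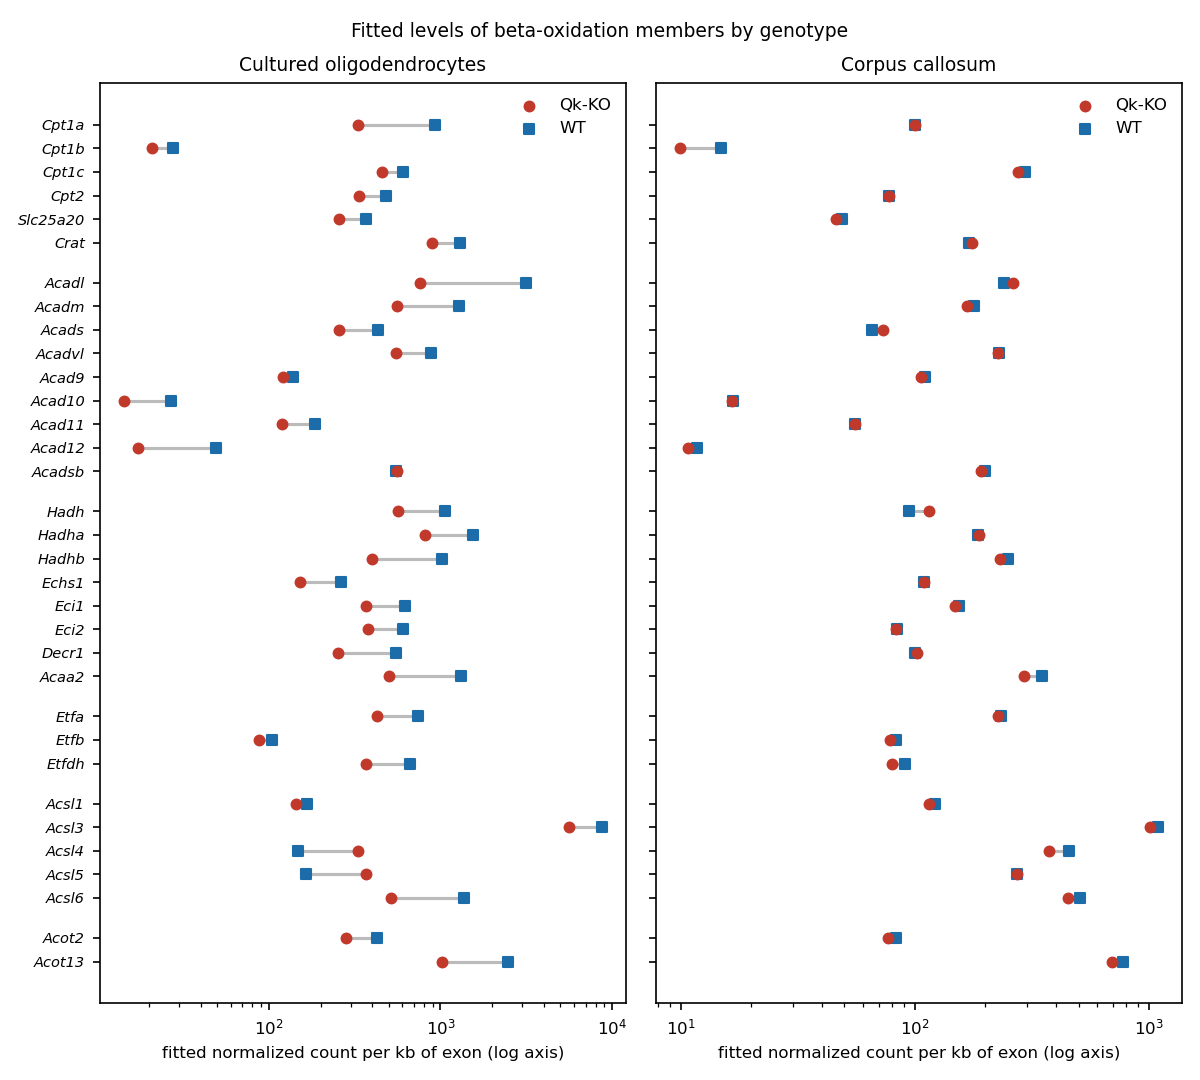
Fitted normalized count per kilobase of exon, on log axes with different ranges, for the 33 members in Qk-KO (circles) and WT (squares), in culture (left) and callosum (right). In culture the circles lie left of the squares for 30 members, while Acsl4 and Acsl5 have them clearly to the right, and in callosum the pairs lie close together.

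The synthetases, which activate free fatty acids before any use, split in both directions in culture, with 2 higher, 2 lower and 1 not passed. Acsl4, which is known for its preference for arachidonic acid, had 1779 in Qk-KO and 795 in WT cultures, a log2 change of 1.16 ± 0.14 (adjusted p = 6.13e-15) per the authors' deposited table. Acsl5 had 1781 in Qk-KO and 798 in WT cultures, a log2 change of 1.16 ± 0.18 (adjusted p = 6.41e-09) per the authors' deposited table. They lie on different chromosomes, Acsl4 on X (142317993 to 142390535, minus strand) and Acsl5 on 19 (55251938 to 55297720, plus strand, GRCm38). Their fitted levels were 2.24-fold and 2.23-fold higher in Qk-KO cultures. Acsl6, a brain form known for activating docosahexaenoic acid, had 5094 in Qk-KO and 13592 in WT cultures, a log2 change of -1.42 ± 0.22 (adjusted p = 1.29e-09) per the authors' deposited table.

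Acsl3, an endoplasmic reticulum and lipid droplet form, had 24373 in Qk-KO and 38032 in WT cultures, the highest fitted normalized counts among the members. Its log2 change was -0.64 ± 0.16 (adjusted p = 5.88e-04) per the authors' deposited table. Acsl1 had 1503 in Qk-KO and 1760 in WT cultures, a log2 change of -0.23 ± 0.15 that did not pass (adjusted p = 0.287) per the authors' deposited table. Per kilobase of exon, Acsl3 made up 80.5% of the summed level of the 5 synthetases in Qk-KO cultures and 82.5% in WT cultures. Acsl6 made up 7.40% in Qk-KO and 13.0% in WT, while Acsl4 and Acsl5 made up 4.74% and 5.27% in Qk-KO and 1.39% and 1.55% in WT. The summed level of the 5 per kilobase was 6947 in Qk-KO and 10579 in WT cultures.

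Of the thioesterases, which split acyl-CoA back to free fatty acid, 1 of 2 fell in culture. Acot13 had 755 in Qk-KO and 1828 in WT cultures, a log2 change of -1.28 ± 0.16 (adjusted p = 1.04e-13) per the authors' deposited table. Acot2, the mitochondrial form, had 620 in Qk-KO and 934 in WT cultures. Its log2 change of -0.59 ± 0.27 did not pass (adjusted p = 0.0816) per the authors' deposited table. Acot2 has the near-identical neighbour Acot1, so the division of reads between them is uncertain, and Acot1 fell by 0.81 ± 0.25 log2 units per the authors' deposited table.

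In callosum, none of the 33 members passed in either direction in the authors' deposited DESeq2 test, where 2.32% of the 19935 tested genes were called, 2.09% higher and 0.231% lower. At an unadjusted p under 0.05 there were 4 members, and 1 with a Student reference for the score. The share of all genes at that p was not counted. The median log2 change of the members was -0.06, against -0.01 over all tested genes. The values lay between -0.59 and 0.30, with standard errors between 0.07 and 0.36, and the 95% intervals of 32 members stayed within a 2-fold change either way. The exception was Cpt1b, at 33.3 in Qk-KO and 50.3 in WT, with a log2 change of -0.59 ± 0.36 (adjusted p = 0.788) per the authors' deposited table.

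The members with the smallest p in callosum stood at small changes. Acsl4 had 2017 in Qk-KO and 2468 in WT callosum, a log2 change of -0.29 ± 0.11 (adjusted p = 0.195) per the authors' deposited table, the opposite sign to its change in culture. Hadh had 574 in Qk-KO and 467 in WT callosum, a log2 change of 0.30 ± 0.12 (adjusted p = 0.334) per the authors' deposited table. Acsl6 stood at -0.17 ± 0.07 (adjusted p = 0.348) and Acaa2 at -0.25 ± 0.12 (adjusted p = 0.591) per the authors' deposited table. Acadl, with the lowest value in culture, had 529 in Qk-KO and 483 in WT callosum, a log2 change of 0.13 ± 0.11 with a 95% interval of -0.09 to 0.35 per the authors' deposited table. Cpt1a had 763 in Qk-KO and 766 in WT callosum, a log2 change of -0.01 ± 0.17 with an interval of -0.35 to 0.33 per the authors' deposited table.

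Marker genes of other cells did move in callosum. Of 12 microglia markers, 9 rose and none fell, beside 2.09% higher and 0.231% lower over all tested genes. Their summed level was 19881 in Qk-KO and 9173 in WT. The summed level of the 14 astrocyte markers was 131648 in Qk-KO and 110215 in WT, with 2 called higher, and Gfap rose by 2.06 ± 0.19 log2 units per the authors' deposited table. Of 12 oligodendrocyte markers, 4 rose, and their sum was 164023 in Qk-KO and 155703 in WT. The 11 neuron markers summed to 133725 in Qk-KO and 144778 in WT, and none was called. Among them, Slc17a7 stood at 12030 in Qk-KO and 12038 in WT. The callosum libraries thus also hold neuronal RNA, and the members' levels there are not those of white matter glia alone. The choroid plexus and ependymal markers summed to 23000 in Qk-KO and 40099 in WT, without a call among the 5. Most of either sum was Ttr, at 21702 in Qk-KO and 38059 in WT (adjusted p = 0.513 per the authors' deposited table). Folr1 and Kl stood at -0.82 ± 0.31 and -0.86 ± 0.38, and Foxj1 and Ccdc153 at -0.01 ± 0.29 and 0.06 ± 0.37, per the authors' deposited table. The part of these shifts in the members' values was not tested.

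The change of the members differed between the systems in 23 of 33 cases, by a two-sided z test on the deposited log2 changes and standard errors, adjusted over the 16601 genes tested in both tables. The change was lower in culture for 21 members (63.6%) and higher for 2, while over all genes 11.7% were lower and 9.84% higher. The median difference, culture minus callosum, was -0.69 log2 units over the members and 0.02 over all genes. For Acadl the difference was -2.18 ± 0.25 (adjusted p = 8.41e-17), for Cpt1a -1.48 ± 0.22 (adjusted p = 5.17e-10) and for Acsl4 1.45 ± 0.18 (adjusted p = 2.02e-14). All 8 later steps had a lower change in culture, with Hadhb at -1.24 ± 0.19 (adjusted p = 7.41e-09). In the carnitine shuttle the difference passed for Cpt1a and Crat. Cpt1c, Cpt2 and Slc25a20, which were called in culture only, did not pass the test of the difference (adjusted p = 0.253, 0.192 and 0.127), nor did Acad10 (adjusted p = 0.109). Across the 33 members the log2 changes in culture and callosum had a Pearson correlation of -0.18, and the change in culture had one of -0.17 with the log2 mean level, as descriptions. Callosum and culture also differ in age, cell makeup, agent and number of libraries, and the tables were normalized separately. The contrasts themselves are unlike as well. WT callosum came from mice with Plp-CreERT2 and a floxed Qk copy that received tamoxifen, while WT cultures carry EtOH in their descriptions. The Cre driver of the cultures is not named, and the share of targeted cells is known for neither system. These sources of a difference cannot be told apart.

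**Figure D3:**
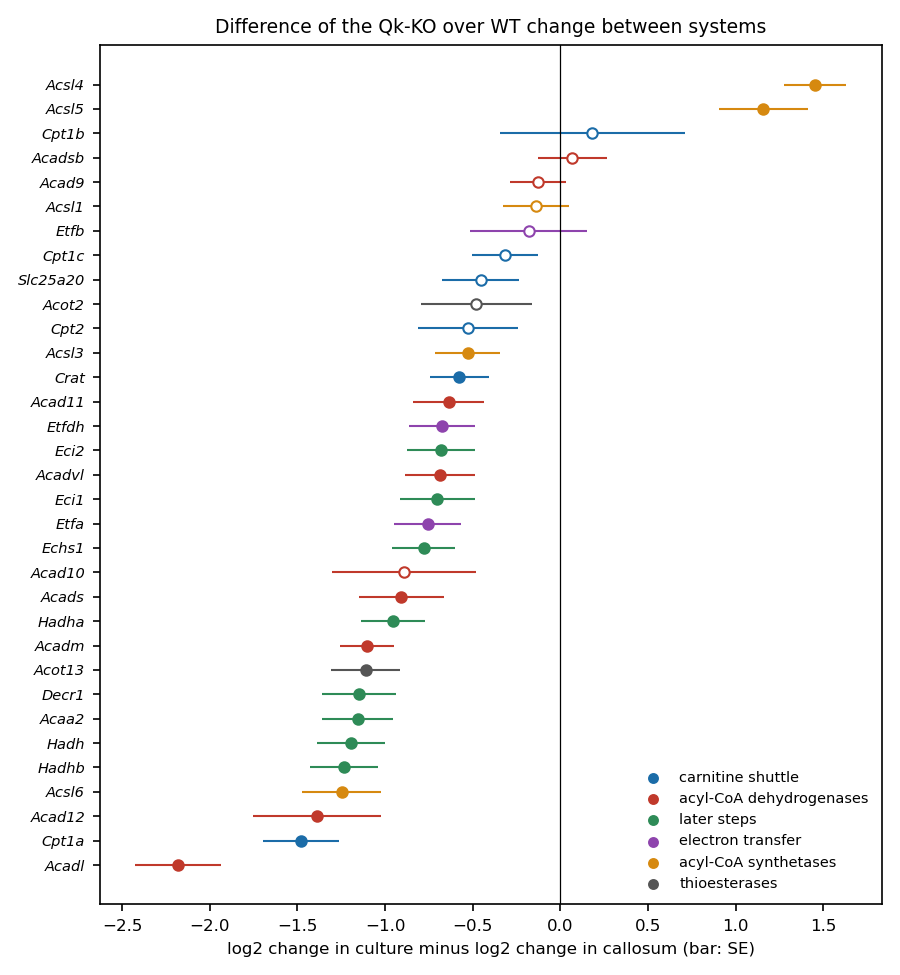
Log2 change of Qk-KO over WT in culture minus that in callosum, with the standard error of the difference, for the 33 members in order of size. Filled points passed an adjusted p under 0.05. Acadl stands lowest at -2.18, and Acsl4 and Acsl5 stand alone as filled points above 0.

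Other genes of the pathway, in lists set by role, were lower in culture as well. In peroxisomal beta-oxidation, which shortens very long chains, 10 of 16 genes fell and none rose (median log2 change -0.57). The peroxisomal importers Abcd3 and Abcd2 had log2 changes of -1.71 ± 0.13 and -1.99 ± 0.28 per the authors' deposited table. The TCA cycle, which burns the acetyl-CoA, fell in 14 of 17 cases with a smaller median of -0.41. Nuclear genes of the respiratory chain fell in 11 of 25 cases (median -0.31). The members' 75.8% called lower stands beside 62.5%, 82.4% and 44.0% in these lists and 15.2% over all genes. In callosum none of the 3 lists had a called gene, beside 2.32% over all tested genes. All 17 TCA cycle values and all 25 respiratory chain values were negative there. Their medians were -0.10 and -0.14, against -0.01 over all tested genes. The share of negative values over all tested genes was not counted.

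**Figure D4:**
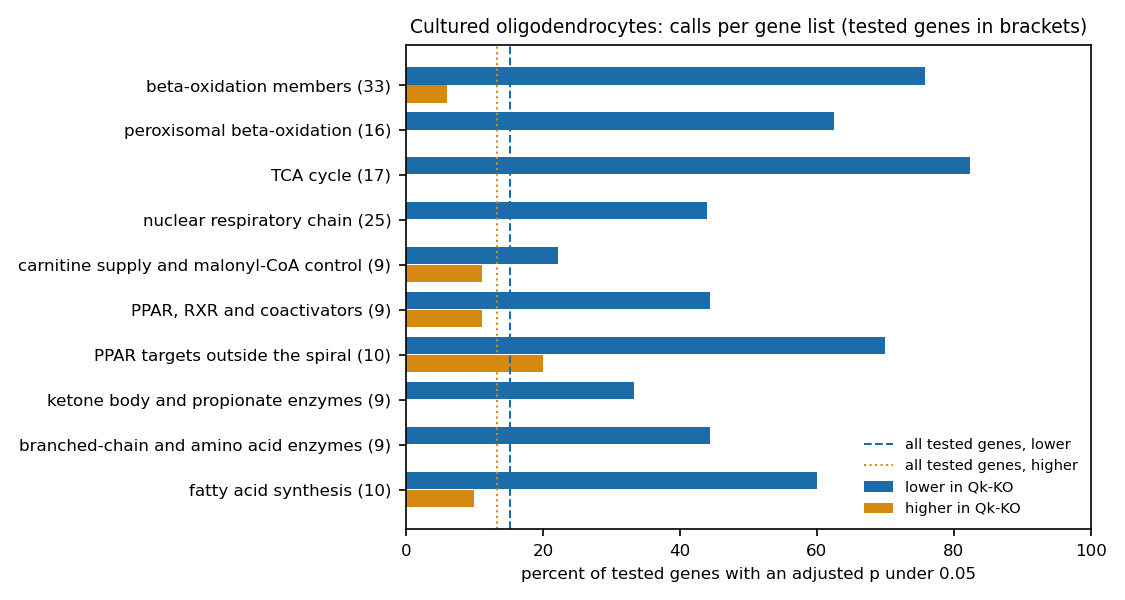
Percent of the tested genes of each list called lower (blue) or higher (orange) in Qk-KO cultures at an adjusted p under 0.05, with the number tested in brackets. The dashed and dotted lines give the shares over all tested genes, 15.2% lower and 13.3% higher, and the members' bar stands at 75.8% lower.

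Carnitine supply, the receptors and PPAR targets were looked at in culture next. Of 9 genes of carnitine supply and malonyl-CoA control, 2 fell (22.2%) and 1 rose (11.1%), beside 15.2% and 13.3% over all genes. Slc22a5, the plasma membrane carnitine transporter, stood at -0.92 ± 0.17 and Bbox1, the last enzyme of carnitine synthesis, at -2.10 ± 0.33 per the authors' deposited table. Of the genes for enzymes that make malonyl-CoA, which restrains Cpt1a, Acaca stood at -0.02 ± 0.13 per the authors' deposited table. Acacb, at 92.2 in Qk-KO and 169 in WT cultures, had a log2 change of -0.88 ± 0.36. It did not pass (adjusted p = 0.0551) per the authors' deposited table. Of 9 PPAR, RXR and coactivator genes, 4 fell and 1 rose. The log2 change was -1.40 ± 0.30 for Ppara, -0.56 ± 0.18 for Rxra, -0.63 ± 0.20 for the coactivator Ppargc1a and 1.97 ± 0.37 for Rxrg per the authors' deposited table. Of 10 PPAR targets outside the spiral, 7 fell and 2 rose. Cd36, which takes up fatty acids, stood at -5.14 ± 0.30, and Pdk4, a brake on glucose oxidation, at -1.30 ± 0.23 per the authors' deposited table. Fabp7 and Fabp3, which bind fatty acids in the cytosol, stood at 0.96 ± 0.18 and 1.28 ± 0.25 per the authors' deposited table. In callosum, no gene of the 3 lists was called, beside 2.32% over all tested genes.

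Markers of other cells also moved in culture. The median log2 change of the 14 astrocyte markers was -1.60, with values between -3.57 and -0.25. Gfap stood at -3.37 ± 0.29, Gja1 at -2.23 ± 0.15 and Slc1a3 at -2.08 ± 0.21, while Aldoc, S100b and Sox9 did not pass per the authors' deposited table. Neuron markers rose in 8 of 10 tested cases, with a summed level of 75519 in Qk-KO and 33813 in WT cultures. Most of either neuron sum was Map2, at 63259 in Qk-KO and 30691 in WT. Nefl and Stmn2 were at low levels and did not pass. Among 12 oligodendrocyte markers 2 were higher and 2 lower, 16.7% each, beside 13.3% higher and 15.2% lower over all tested genes. Among 6 precursor markers 1 was higher and 3 were lower. Microglia markers were close to absent, with C1qa, C1qb, Itgam and Trem2 at 0 and 2 of 12 tested, both of which fell. Endothelial and mural markers fell in 2 of 4 tested cases (median -1.04), with a summed level of 312.7 in Qk-KO and 475.1 in WT cultures. Of the choroid plexus and ependymal markers, 1 of 4 tested fell, and the list summed to 1910 in Qk-KO and 3915 in WT cultures. That gene was Foxj1, a regulator of motile cilia, with 1667 in Qk-KO and 3706 in WT cultures, a log2 change of -1.15 ± 0.25 (adjusted p = 2.95e-05) per the authors' deposited table. The part of these marker shifts in the fall of the members was not tested.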

How the data were processed

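RNA sequencing tables were used, 1 for cultures and 1 for callosum. DESeq2, featureCounts, TopHat2 2.0.14, FastQC and the mm10 build appear among the submitters' processing notes; settings, annotation and strand were not given in the sources used here. The library columns are log2 values of fitted counts plus 1, as deposited. Libraries of a genotype differed by 1 constant factor within 1e-09 on the log2 scale, so the planned test on counts was not possible and the authors' deposited log2 fold changes, standard errors and adjusted p-values were used. The deposited score is their ratio. The deposited mean is a normalized signal, per the file headers. Signs were turned to Qk-KO over WT.

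Fitted counts were divided by recovered size factors, and by GENCODE vM21 exon length for levels between genes. Systems were compared with a z test. A simulation of this test drew normal errors from the deposited standard errors, so it could not check those errors. Intervals are 95% normal intervals. The alternatives were thresholds, filters, scalings and a Student reference. Members, gene lists and the rule for named genes (all members, then up to 4 genes of smallest p and the most abundant per list) were chosen with earlier results of these data known. A symbol with several identifiers was taken at its highest mean. Python 3.11.15, pandas 2.3.3 and scipy 1.17.1 were used. Some genes that the rule for named genes picks are not reported here.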

Additional observations from a re-analysis of the deposited data

Results flagged for a closer look

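The Qk-KO over WT change differed between culture and callosum for 23 members, by the z test adjusted over all genes tested in both tables. The values are log2 change in culture minus log2 change in callosum. In the carnitine shuttle they were -1.48 for Cpt1a and -0.58 for Crat. Among the dehydrogenases they were -2.18 for Acadl, -1.11 for Acadm, -0.91 for Acads, -0.69 for Acadvl, -0.64 for Acad11 and -1.39 for Acad12. Among the later steps they were -1.19 for Hadh, -0.95 for Hadha, -1.24 for Hadhb, -0.78 for Echs1, -0.70 for Eci1, -0.68 for Eci2, -1.15 for Decr1 and -1.16 for Acaa2. In electron transfer they were -0.76 for Etfa and -0.68 for Etfdh. Among the synthetases they were -0.53 for Acsl3, 1.45 for Acsl4, 1.16 for Acsl5 and -1.25 for Acsl6, and for Acot13 the value was -1.11. Acsl4 was the member with a called rise in culture and a negative value in callosum. No library could be examined for outlying values, since the columns hold fitted means.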

How the results depend on the processing

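Over the thresholds, filters, scalings and the minimum fold of 1.5, the members called in culture ranged from 21 to 26 lower and stayed at 2 higher, and the callosum kept 0. With a Student reference in place of the normal one, 0 members were called lower and 0 higher in culture. There 25 members had an unadjusted p under 0.05, and the share of all genes at that p was not counted. The difference between systems passed for 16 to 21 members lower in culture and for 2 higher in every alternative run. Totals without mitochondrially encoded genes, added after the data were seen, shifted all log2 changes in culture by 0.11. Under them Acad10 lost its call (adjusted p = 0.0528), and Cpt1c lost its call there, with library totals and without the filter (adjusted p between 0.0711 and 0.158). Signs turned only in values near 0 that had no call. With recentring, Acadsb in culture moved to -0.0004, and in callosum Acadvl, Cpt1a and Cpt2 to 0.0036, 0.0007 and 0.0055. With library totals, callosum values became 0.004 for Acad10, 0.015 for Echs1, 0.019 for Acadvl, 0.0132 for Eci2, 0.0161 for Cpt1a and 0.0209 for Cpt2. Without mitochondrially encoded genes they became 0.0074 for Echs1, 0.0114 for Acadvl, 0.0056 for Eci2, 0.0085 for Cpt1a and 0.0133 for Cpt2. Leaving out replicates was not run. No paired analysis was possible because the library columns hold fitted means with no replicate values, although passages pair the cultures.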

Other observations

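Enzymes that share substrates with the spiral gave further values in culture. Of 9 branched-chain and amino acid enzymes, 4 fell (44.4%) and none rose, beside 15.2% lower and 13.3% higher over all tested genes. Hibadh and Hibch, of valine breakdown, stood at -0.93 ± 0.13 and -0.86 ± 0.14, while the abundant Ivd stood at 0.07 ± 0.19 per the authors' deposited table. Of 9 ketone body and propionate enzymes, 3 fell (33.3%) and none rose. Mut, the methylmalonyl-CoA mutase, fell by 0.68 ± 0.16 log2 units, and Oxct1, which activates ketone bodies for use, stood at 0.13 ± 0.12 per the authors' deposited table.

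Fatty acid synthesis and desaturation, the opposite branch, fell in 6 of 10 cases in culture and rose in 1. Over all tested genes in culture, 15.2% were lower and 13.3% higher. The desaturase gene Scd2 had 66770 in Qk-KO and 205722 in WT cultures, a log2 change of -1.62 ± 0.13, and Elovl6 rose by 0.66 ± 0.14 log2 units per the authors' deposited table. In callosum, Scd1 and Scd2 fell, with log2 changes of -0.48 ± 0.13 and -0.38 ± 0.09, and Elovl1 rose, with 0.48 ± 0.14, per the authors' deposited table, the only calls there among the pathway lists.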
